A study of Mus musculus with 4 samples.

Results

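Open chromatin was examined at 7 nuclear receptor genes of naive pluripotency, Esrrb, Nr5a2, Nr0b1, Esrra, Nr6a1, Rara and Rarg. The members were all ATAC-seq peaks that overlapped the mm10 span of one of these genes or the 50 kb on either side of it. ATAC-seq uses a transposase that cuts accessible DNA, so a peak marks a stretch of open chromatin. After overlapping peaks of the 4 deposited lists were merged into regions, 205 of 170898 regions were members. They held 157 and 111 peaks of the SOX17FNV libraries and 153 and 129 peaks of the SOX2 libraries.

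The cells were 2TS22C mouse embryonic stem cells whose own Sox2 gene was labelled as silenced. All were labelled as treated with DOX and grown in 2i serum/LIF medium, which favours the naive state. A lentivirus supplied SOX17FNV, an engineered form of the endoderm factor SOX17, in 2 libraries and SOX2 in the other 2. The labels name 1 cell line, call the libraries biological replicates, and do not say whether the transduced cultures were derived separately. All p-values therefore measure the spread between these libraries, which may be technical. In limma this spread is mostly pooled over regions of like level and is not the region's own. The question addressed is whether the regulatory DNA of these receptor genes stays as open in cells kept by SOX17FNV as in cells kept by SOX2.

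Nuclear receptors are transcription factors with a zinc finger domain that binds DNA and a domain that binds small lipophilic ligands or coregulators. Estrogen-related receptors and NR5A2 bind a single copy of a short core motif with an extension before it, whereas retinoic acid receptors bind a pair of such cores together with RXR. In naive stem cells, ESRRB and NR5A2 sustain the self-renewal network. NR6A1 represses Pou5f1 during differentiation, and the retinoic acid receptors drive the exit from pluripotency when their ligand is present.

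The upstream sequences of 8 annotated start sites are shown because start sites with and without a called region occurred in the same genes. Esrra and Nr0b1 are included for their levels, given as relative pileup, which is defined below. Among the starts open in all 4 libraries, Esrra had the highest such level in both groups and Nr0b1 the lowest in SOX17FNV cells. A start site without a called region in any library is called closed below, although a level under the calling threshold cannot be told apart from none. Each line gives the 250 bases before the start, 5′ to 3′ in the direction of transcription, from RefSeq, build GRCm38.p6, whose coordinates are those of mm10. Capitals mark TATAAA and GGGCGG, the core of a TATA box and of a GC box, on either strand.
Esrrb first start, chr12:86360867-86361116, plus strand: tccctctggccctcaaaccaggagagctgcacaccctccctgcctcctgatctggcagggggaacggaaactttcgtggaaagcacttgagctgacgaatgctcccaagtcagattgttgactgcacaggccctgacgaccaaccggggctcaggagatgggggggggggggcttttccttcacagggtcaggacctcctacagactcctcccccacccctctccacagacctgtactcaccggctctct
Esrrb inner start, chr12:86421394-86421643, plus strand: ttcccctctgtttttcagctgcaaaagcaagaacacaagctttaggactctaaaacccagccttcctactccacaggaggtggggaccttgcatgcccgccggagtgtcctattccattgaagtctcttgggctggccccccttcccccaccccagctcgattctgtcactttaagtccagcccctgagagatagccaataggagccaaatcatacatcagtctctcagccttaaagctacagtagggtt
Nr5a2 first start, chr1:136960449-136960698, minus strand: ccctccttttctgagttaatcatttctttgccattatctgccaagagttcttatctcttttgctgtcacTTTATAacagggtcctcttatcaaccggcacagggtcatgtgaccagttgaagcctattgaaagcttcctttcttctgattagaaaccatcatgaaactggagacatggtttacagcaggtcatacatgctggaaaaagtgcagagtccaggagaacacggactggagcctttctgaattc
Nr5a2 inner start, chr1:136953631-136953880, minus strand: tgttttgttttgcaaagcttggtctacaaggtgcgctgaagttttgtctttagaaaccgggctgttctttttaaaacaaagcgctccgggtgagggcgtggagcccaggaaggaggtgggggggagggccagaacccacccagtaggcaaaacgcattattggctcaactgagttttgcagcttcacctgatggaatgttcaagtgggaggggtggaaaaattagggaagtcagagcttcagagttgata
Nr0b1 start, chrX:86191525-86191774, plus strand: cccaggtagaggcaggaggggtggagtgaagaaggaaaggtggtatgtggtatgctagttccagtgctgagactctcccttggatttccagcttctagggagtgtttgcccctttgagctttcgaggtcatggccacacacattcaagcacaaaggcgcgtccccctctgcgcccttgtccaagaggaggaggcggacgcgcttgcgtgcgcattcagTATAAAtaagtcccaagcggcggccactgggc
Nr6a1 first start, chr2:38926462-38926711, minus strand: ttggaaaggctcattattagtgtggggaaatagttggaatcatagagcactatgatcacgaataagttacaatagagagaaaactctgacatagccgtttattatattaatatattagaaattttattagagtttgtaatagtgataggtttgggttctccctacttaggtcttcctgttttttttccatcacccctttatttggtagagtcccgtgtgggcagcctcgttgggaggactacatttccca
Nr6a1 inner start, chr2:38784516-38784765, minus strand: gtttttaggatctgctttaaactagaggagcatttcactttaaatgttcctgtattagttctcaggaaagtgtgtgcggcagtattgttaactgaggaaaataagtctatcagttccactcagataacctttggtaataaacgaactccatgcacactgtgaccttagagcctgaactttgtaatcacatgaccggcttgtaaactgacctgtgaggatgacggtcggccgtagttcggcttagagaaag
Esrra start, chr19:6921809-6922058, minus strand: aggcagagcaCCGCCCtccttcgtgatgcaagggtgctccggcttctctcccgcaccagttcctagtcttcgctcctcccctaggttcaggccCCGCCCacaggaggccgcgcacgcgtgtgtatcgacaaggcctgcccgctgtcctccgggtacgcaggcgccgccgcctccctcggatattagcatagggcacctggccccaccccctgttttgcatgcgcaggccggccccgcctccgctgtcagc

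Nr5a2, Nr6a1 and Rara were open at some of their start sites and had no called region at others. Of 14 annotated start sites, 9 had an upstream window covered by a region called in all 4 libraries, 1 was covered in 3 libraries and 4 in none. Of all 21263 such windows of protein-coding genes, counted per start site as well, 58.5% were covered in all 4 libraries. Esrrb was covered in all 4 libraries at the inner start, while a region at the first start was called in SOX17FNV replicate 1, with a summit pileup of 14 (the number of reads or fragments stacked at the peak's highest point), and in both SOX2 libraries, with 16 and 18. Nr5a2 was open at the inner start and showed no region at the first. Nr6a1 had the opposite arrangement, being open at the first start and not at the inner one.

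The number of CpG dinucleotides was higher at open than at closed start sites in Nr5a2 and Rara, and lower in Nr6a1. The closed first start of Nr5a2 held 2 CpG dinucleotides in its 250 bases and the open inner start held 6, which is also the median of all promoters. For Nr6a1 the order was turned round, with 4 CpG at the open first start and 7 at the closed inner one. At Rara the open starts, whose windows overlap, held 13 each, and the closed ones 2 and 6. The start of Esrra held 22. TATAAA was found upstream of the Nr0b1 start at -32 to -27 on the plus strand, and at -181 to -176 on the minus strand at the first start of Nr5a2, where the line reads TTTATA. Of 32851 promoter windows, 12.4% held TATAAA. The GC box core was found in 5 of the 14 windows, 3 of Rara, 1 of Rarg and 1 of Esrra, and in 32.7% of all. Both motifs were chosen after the promoters had been read.

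The motifs of the receptors themselves and of SOX and OCT factors were searched on both strands. None of the 14 windows held TCAAGGTCA, the motif of estrogen-related receptors and NR5A2, which 0.387% of all windows held. None held the unspaced direct repeat bound by NR6A1 (2 windows in all) or the direct repeat with a spacer of 5 bases bound by RAR with RXR (3 windows in all). None held CATTGTT, a SOX motif (3.29% of all windows), ATGCAAAT, the OCT motif (1.60%), or the joined SOX and OCT motif, which contains the OCT motif and was in 0 windows in all. The absence of these letters says nothing of the factors, and regions away from the start sites were not searched.

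More of the open regions at the receptor genes were called in every library than in 1 group alone. Of the 205 regions, 78 (38.05%) were called in all 4 libraries, against 33.8% of all regions. SOX17FNV-only regions, called in both SOX17FNV libraries and in no SOX2 library, numbered 8 (3.902%, against 3.06% of all regions). SOX2-only regions, the converse, numbered 10 (4.878%, against 4.09%). Both shares lay near those of all regions. With 1 library left out, its group was judged by its remaining library alone. A rise in these counts follows from that looser rule, and the share of all regions under it was not counted. With SOX17FNV replicate 1 left out the SOX17FNV-only count was 14 and the SOX2-only count 25. With SOX17FNV replicate 2 left out the SOX17FNV-only count was 29 and the SOX2-only count 11. With SOX2 replicate 1 left out the SOX17FNV-only count was 15 and the SOX2-only count 24. With SOX2 replicate 2 left out the SOX17FNV-only count was 10 and the SOX2-only count 31. The other 109 regions were called in other combinations, 58 of them in a single library. Of the 26 regions called in 3 libraries, 15 (57.69%) were missing only in SOX17FNV replicate 2, which had the shortest list, against 40.24% of all regions called in 3 libraries. Another 8 (30.77%, against 41.36%) were missing only in SOX2 replicate 2, 1 only in SOX17FNV replicate 1 and 2 only in SOX2 replicate 1.

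**Figure D1:**
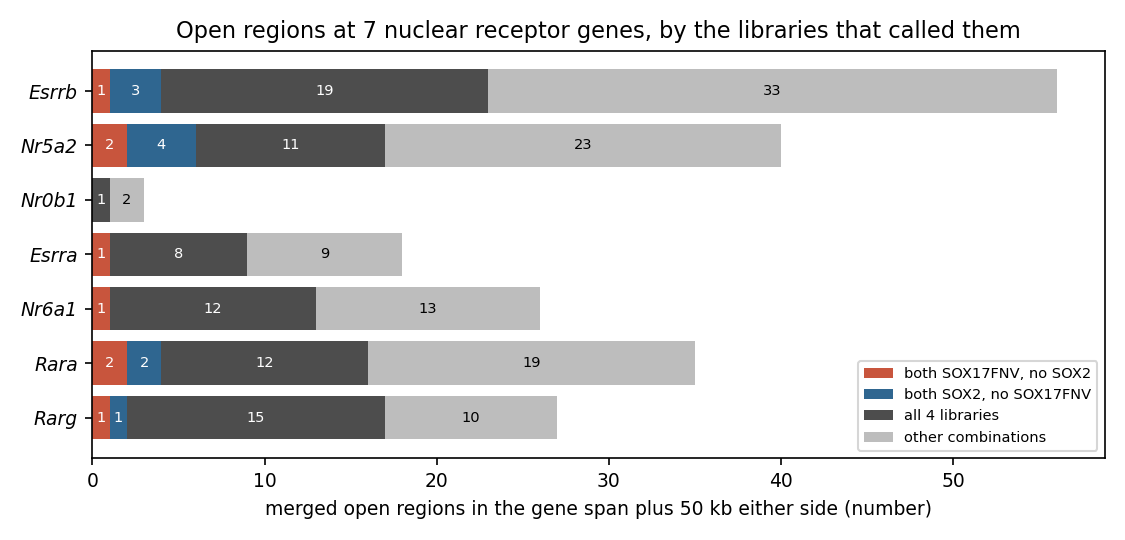
Number of merged open regions (x axis) in the span of each gene plus 50 kb on either side (y axis), split by the libraries that called them. Esrrb held the most regions, 56, and Nr0b1 the fewest, 3, and at every gene the SOX17FNV-only and SOX2-only regions were fewer than those of other combinations.

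The libraries differed in the length of their lists, in the lowest pileup called and in background. The part of these differences in the calls was not tested. The lists held 120341 and 92851 peaks in SOX17FNV and 123214 and 96500 in SOX2. The files give no read totals, but the summit pileup could be solved from the deposited fold and p-value. The lowest pileup that was called was 11 and 10 in SOX17FNV and 12 and 13 in SOX2, and the genome-wide background was 3.91 and 3.27 in SOX17FNV and 4.17 and 5.02 in SOX2. To compare libraries, each pileup was divided by the median of its library over the 57783 regions called in all 4 libraries, 33 and 24 in SOX17FNV against 35 and 28 in SOX2. This relative pileup is the level used below, and a library without a call gives no value rather than a zero. As a check of the labelled cell type, 10 of 10 stem cell marker genes (Pou5f1, Nanog and Zfp42 are examples) were called open at a gene end, within 1 kb, in every library. This is a weak check, since the same held for 6 of 8 fibroblast, 7 of 8 endoderm and 6, 6, 5 and 5 of 6 trophectoderm markers, and for 67.55% to 70.66% of all protein-coding genes.

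The levels of the groups were compared at the 78 shared regions, of which 1 passed the test. By limma with Benjamini-Hochberg adjustment over all 57783 regions, 0 were higher in SOX17FNV cells (0.893% of all regions were), and 6 of the 78 were higher at an unadjusted p below 0.05 (7.46% of all regions were). The 1 region that passed, in Nr6a1, was lower (1.23% of all regions were), and 5 of the 78 were lower at an unadjusted p below 0.05 (6.07% of all regions were). The levels of the 2 groups did not overlap at 31 of the 78 regions, and at 42.5% of all regions. The median log2 difference, SOX17FNV minus SOX2, was -0.06, against 0.04 over all regions (0.14 when scaled by background pileup, which shifts all regions by 0.20), and 48 of the 78 differences were negative, against 44.82% of all regions. For 68 of the 78 the difference lay within 0.5 on either side of 0. With 2 libraries against 2, an exact permutation test of a single region cannot give a p below 0.333.

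**Figure D2:**
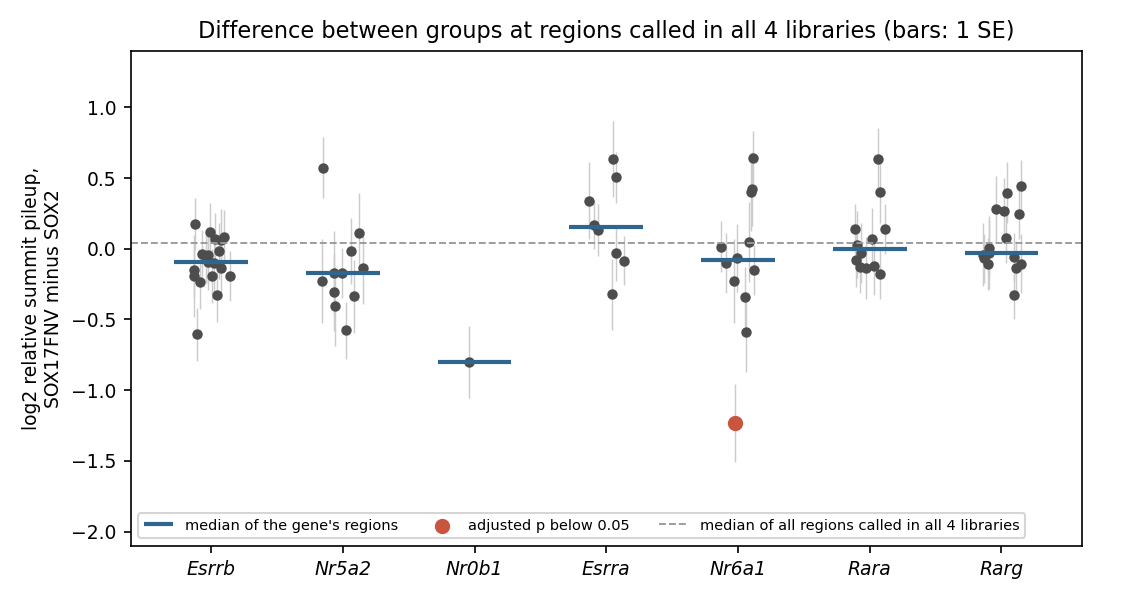
Log2 difference in relative summit pileup, SOX17FNV minus SOX2 (y axis), of each region called in all 4 libraries, by gene (x axis). Points are regions with bars of 1 SE, blue lines are the medians of each gene, the dashed line is the median of all shared regions at 0.04, and the red point is the Nr6a1 region with an adjusted p of 0.00986, at -1.23.

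Esrrb, the orphan receptor that holds the naive network together with NANOG and TFCP2L1, carried the most open chromatin of the 7 genes, most of it inside the gene. Its window (chromosome 12, gene span 86361117 to 86521628) held 45 and 26 peaks in SOX17FNV and 44 and 35 in SOX2, so the groups overlapped. Of its 56 regions, 19 were called in all 4 libraries, 17 of these inside the gene. Per 100 kb this was 7.29 shared regions, at the percentile 76.0 of 21887 protein-coding genes.

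The shared regions of Esrrb with the highest relative pileup lay near the far end of the gene. The region chr12:86501603-86502330, 141 kb from the first start, had summit pileups of 93 and 51 in SOX17FNV and 84 and 91 in SOX2. Its relative pileup averaged 2.47 ± 0.490 in SOX17FNV and 2.82 ± 0.601 in SOX2 (SD, n = 2), at the percentiles 97.9 and 99.8 of all shared regions, and the groups overlapped. Its log2 difference was -0.19 (SE 0.177, limma adjusted p = 0.714). The local background there was raised as well, at 30.15 and 20.08 in SOX17FNV and 40.23 and 28.03 in SOX2. The fold enrichment, a ratio to local background, was 3.02 and 2.47 in SOX17FNV and 2.06 and 3.17 in SOX2. Its median over the shared member regions was 3.41. At chr12:86394928-86396301, also inside Esrrb, it was 5.82 and 4.75 in SOX17FNV and 5.49 and 4.27 in SOX2. The region at the inner start, chr12:86421300-86422852, had a lower relative pileup. There the pileups were 31 and 20 in SOX17FNV and 34 and 26 in SOX2, and the log2 difference was -0.10.

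No shared region of Esrrb passed the test. The lowest difference was at chr12:86454671-86456282, 94.4 kb inside the gene, with pileups of 42 and 26 in SOX17FNV and 68 and 46 in SOX2. The SOX17FNV levels, 1.27 and 1.08, both lay below the SOX2 levels, 1.94 and 1.64 (log2 difference -0.61, SE 0.189, limma adjusted p = 0.0861). The highest difference was 0.18, at chr12:86466208-86466840, with pileups of 62 and 37 in SOX17FNV and 53 and 42 in SOX2. Of the 19 differences, 14 were negative, and their median was -0.10, against -0.01 for the shared regions of chromosome 12 and 0.06 for those within 5 Mb. With fold enrichment in place of pileup the median of the 19 turned to 0.04.

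Esrrb had 1 SOX17FNV-only region, inside the gene at chr12:86387753-86388108 with pileups of 24 and 13. Of its 3 SOX2-only regions, the one at chr12:86359824-86360355, with pileups of 15 and 18, lay 1.03 kb upstream of the first start and in the span of the lncRNA gene Gm40483. The others were inside Esrrb, at chr12:86440946-86441447 with pileups of 25 and 20 and at chr12:86484309-86484757 with 34 and 26. A region just past the gene's end, chr12:86521653-86522125, was called with 34 and 22 in SOX17FNV and with 39 in SOX2 replicate 1 only.

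Nr5a2, the orphan receptor also called LRH-1, which activates Pou5f1 in stem cells, had its highest relative pileup at its inner start. Its window (chromosome 1, gene span 136842562 to 136960448, minus strand) held 27 and 18 peaks in SOX17FNV and 30 and 25 in SOX2. Of 40 regions, 11 were shared, at the percentile 57.9 of genes per 100 kb. The shared regions of Nr5a2 had a lower median relative pileup than those of Esrrb, 0.818 and 0.625 in SOX17FNV and 1.0 and 0.750 in SOX2. At Esrrb it was 1.48 and 1.25 in SOX17FNV and 1.51 and 1.54 in SOX2. The median local background was lower at Nr5a2 too, at 5.01 and 3.74 in SOX17FNV and 7.02 and 6.15 in SOX2. At Esrrb this background was 12.65 and 8.18 in SOX17FNV and 14.82 and 11.69 in SOX2. Relative pileup therefore does not rank the 2 genes by enrichment over local background.

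The region of Nr5a2 with this highest relative pileup was chr1:136952323-136954413, with pileups of 50 and 42 in SOX17FNV and 67 and 49 in SOX2. The relative pileups averaged 1.63 ± 0.166 in SOX17FNV and 1.83 ± 0.116 in SOX2 (SD, n = 2), and the groups overlapped (log2 difference -0.17, SE 0.177, limma adjusted p = 0.756). The extremes of the gene lay on either side of it. At chr1:136949010-136949723, 11.1 kb past the first start, the pileups were 45 and 22 in SOX17FNV and 65 and 42 in SOX2 (log2 difference -0.58, SE 0.203, limma adjusted p = 0.142). At chr1:136972600-136973434, 12.6 kb upstream of the first start, they were 52 and 34 in SOX17FNV and 45 and 22 in SOX2 (log2 difference 0.57, SE 0.216, limma adjusted p = 0.185). The groups did not overlap at either region, and neither passed the test. Fold enrichments at the upstream region were 5.37 and 6.62 in SOX17FNV and 5.23 and 3.50 in SOX2. At the inner start, over a higher local background, they were 3.17 and 4.56 in SOX17FNV and 2.76 and 3.13 in SOX2.

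Of the 11 differences at Nr5a2, 9 were negative, with a median of -0.17, against 0.02 for chromosome 1 and 0.05 within 5 Mb. The spread of the libraries' own medians within groups, 0.284, was larger than this median. With fold enrichment in place of pileup the median was -0.05, and the difference at the inner start turned from -0.17 to 0.21. The gene had 2 SOX17FNV-only regions. One, at chr1:136977751-136977994 with pileups of 34 and 16, lay 17.4 kb upstream of the first start, and the other, at chr1:136884567-136884849 with 16 and 11, inside the gene. It also had 4 SOX2-only regions. The one with the highest pileups, 46 and 30, was chr1:136951342-136951686, which lay 637 bp from the region at the inner start. Its fold enrichments over local background, 1.94 and 1.97, were the lowest of the 4. The 3 others had pileups between 13 and 20, close to the lowest that these lists called, 12 and 13. Their fold enrichments lay between 2.49 and 3.34.

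**Figure D3:**
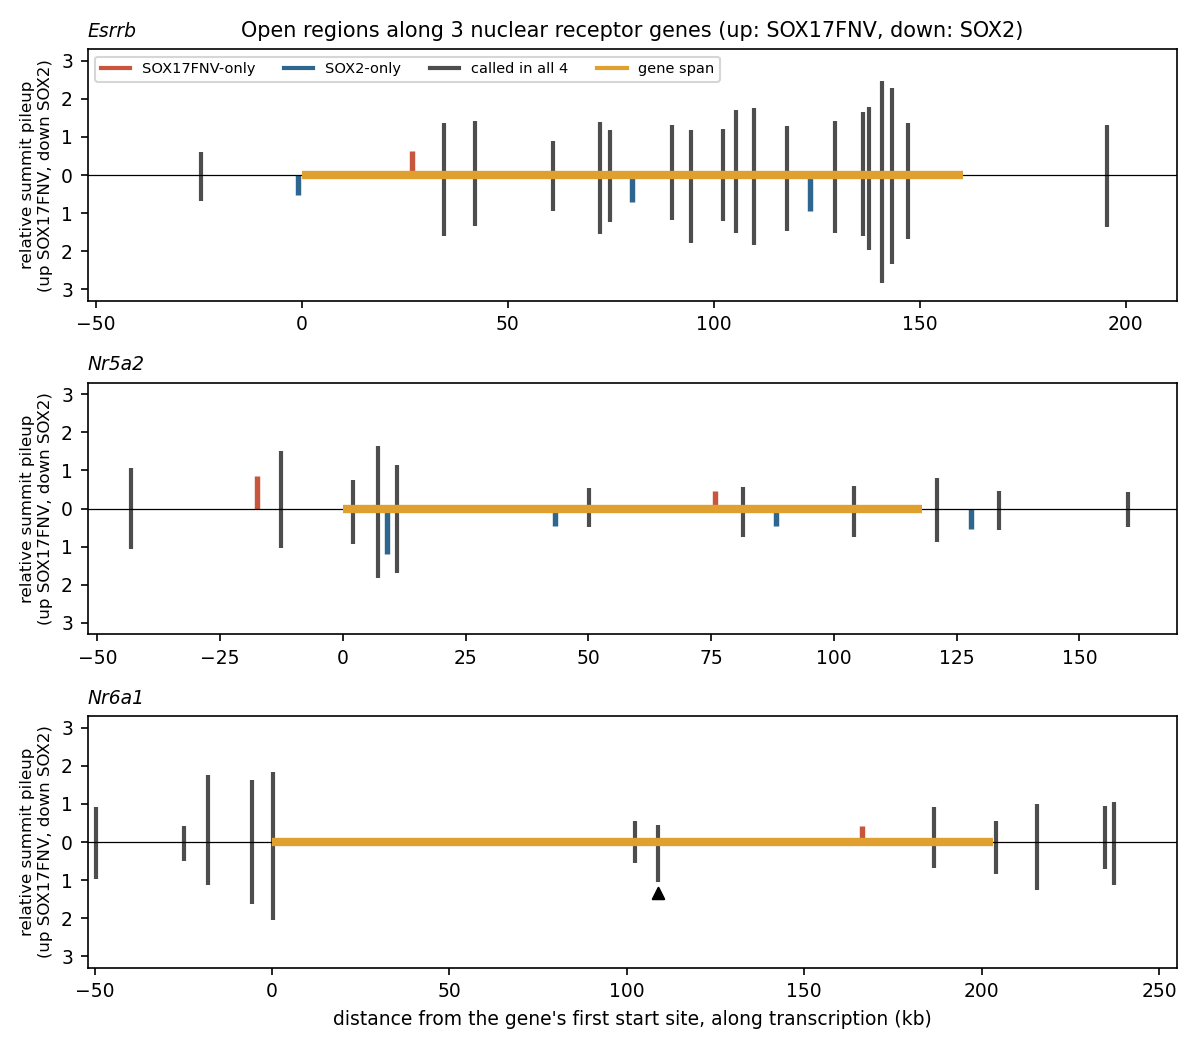
Regions along Esrrb, Nr5a2 and Nr6a1 by distance from the first start site in kb (x axis), with the mean relative summit pileup of the SOX17FNV libraries drawn upward and of the SOX2 libraries downward (y axis). Grey lines are regions called in all 4 libraries, red and blue lines the SOX17FNV-only and SOX2-only regions, orange bars the gene spans, and the black triangle marks the Nr6a1 region that passed the test. The shared regions of Esrrb fill the gene and are tallest 141 kb from its first start, and those of Nr5a2 are tallest 7.08 kb from its first start.

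Esrra, the estrogen-related receptor that controls mitochondrial energy genes, had the start site with the highest mean relative pileup in both groups. In SOX2 cells its libraries overlapped those of the Nr6a1 first start and the Rarg inner start. The region chr19:6921725-6922430 had pileups of 73 and 63 in SOX17FNV and 67 and 67 in SOX2. Its relative pileups averaged 2.42 ± 0.292 in SOX17FNV and 2.15 ± 0.338 in SOX2 (SD, n = 2), at the percentiles 97.5 and 96.4 of shared regions. The groups overlapped (log2 difference 0.17, SE 0.172, limma adjusted p = 0.744). This region also reaches the near end of the neighbouring gene Catsperz, so the 2 gene ends cannot be told apart. Beside it inside Esrra, chr19:6920738-6921420 was called in replicate 1 of SOX17FNV with a pileup of 28 and in replicate 1 of SOX2 with 26.

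The window of Esrra held 16 and 14 peaks in SOX17FNV and 11 and 10 in SOX2. It was the only one of the 7 windows in which the counts of the groups did not overlap. The share of all gene windows without such overlap was not counted, so this does not set Esrra apart. Of the 18 regions in the Esrra window 8 were shared, and Esrra was the nearest gene of 1 of them. The others lay at Prdx5, Trmt112, Kcnk4, Gpr137, Bad and Plcb3 or between genes. The highest difference was 0.64 at chr19:6893843-6894426, between genes, with pileups of 26 and 24 in SOX17FNV and 20 and 16 in SOX2 (SE 0.268, limma adjusted p = 0.256). The lowest was -0.32 at chr19:6933615-6934477 in Kcnk4, with 28 and 16 in SOX17FNV and 31 and 28 in SOX2. At chr19:6909292-6910665, 312 bp past the far end of Esrra and within Prdx5 and Trmt112, the pileups were 55 and 42 in SOX17FNV and 63 and 51 in SOX2 (log2 difference -0.08). The median of the 8 differences was 0.15, against 0.05 for chromosome 19 and 0.11 within 5 Mb. With fold enrichment in place of pileup it was 0.03. The only group-specific region was SOX17FNV-only, chr19:6883113-6883537, with pileups of 12 and 10, at or next to the lowest that these lists called.

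Nr0b1, also called DAX1, lacks the usual DNA-binding domain and acts as a corepressor that binds NR5A2. It stood in the sparsest window, with 3 regions in 104 kb of chromosome X (gene span 86191775 to 86195947) and shared regions per 100 kb at the percentile 19.3 of genes. The window held 1 and 1 peaks in SOX17FNV and 4 and 1 in SOX2. The 1 shared region, chrX:86191573-86193839, covered the start site, with pileups of 20 and 14 in SOX17FNV and 39 and 27 in SOX2.

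The relative pileups at the Nr0b1 start were 0.606 and 0.583 in SOX17FNV and 1.11 and 0.964 in SOX2, so both SOX17FNV libraries lay below both SOX2 libraries. The means were 0.595 ± 0.0161 in SOX17FNV and 1.04 ± 0.106 in SOX2 (SD, n = 2), at the percentiles 10.8 and 53.6 of all shared regions in the same order. The log2 difference was -0.80 (SE 0.257), the lowest of any start site here, and it did not pass the test (limma adjusted p = 0.0978, unadjusted p = 0.00339). With fold enrichment in place of pileup it was -0.43 (limma adjusted p = 0.710). Centred within each chromosome it was -0.66 (limma adjusted p = 0.233). With a replicate block the limma adjusted p was 0.0175. Over all alternatives the difference ranged from -0.91 to -0.43. Shared regions of chromosome X had a median difference of -0.10, and the 19 within 5 Mb of Nr0b1 -0.01. The 2 other regions, 10.7 and 4.33 kb upstream, were called in SOX2 replicate 1 alone, with pileups of 15 and 19.

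Nr6a1, also called GCNF, is the repressor that silences Pou5f1 as cells differentiate, and it held the only region that passed the test. The region chr2:38817432-38817880 lay inside the gene (chromosome 2, gene span 38723369 to 38926461, minus strand), 109 kb from the first start and 32917 bp from the inner start. It had summit pileups of 14 and 11 in SOX17FNV and 30 and 35 in SOX2. The relative pileups averaged 0.441 ± 0.0241 in SOX17FNV and 1.05 ± 0.278 in SOX2 (SD, n = 2), at the percentiles 0.995 and 55.0 of shared regions, and both SOX17FNV libraries lay below both SOX2 libraries. The region was lower in SOX17FNV by limma (log2 difference -1.23, SE 0.277, adjusted p = 0.00986), with an exact permutation p of 0.333, the smallest possible.

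The SOX17FNV pileups at this Nr6a1 region stood 3 and 1 above the lowest summits that these lists called, 11 and 10, and the local background there was the genome-wide one in every library. The call did not hold without either SOX17FNV library or without SOX2 replicate 2. Those fits leave 1 library in a group, so they cannot tell a weak difference from the loss of a library. The call also did not hold when libraries were scaled by their genome-wide background. With that scaling 0 of all 57783 regions were higher and 0 lower, so the setting does not single out this region. Over the alternatives the difference ranged from -1.50 to -0.96 and the limma adjusted p from 7.44e-05 to 0.924. The region also lies 1460 bp inside one end of Nr6a1os, a lncRNA gene that overlaps Nr6a1, and 34855 bp from Mir181a-2, a miRNA gene in the same span. ATAC-seq has no strand, so these genes cannot be told apart here.

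No other region of the Nr6a1 window passed the test. The first start of the gene, chr2:38925061-38927322, had pileups of 56 and 48 in SOX17FNV and 64 and 64 in SOX2 (log2 difference -0.15, SE 0.176, limma adjusted p = 0.788), and the groups overlapped. The window held 20 and 15 peaks in SOX17FNV and 19 and 17 in SOX2, and 12 of its 26 regions were shared. Just past the gene's far end, chr2:38722212-38722633 had 15 and 16 in SOX17FNV and 24 and 28 in SOX2 (log2 difference -0.59, limma adjusted p = 0.352). The largest positive difference of the 78, 0.64, was upstream in the neighbour Olfml2a at chr2:38943754-38945063, with 59 and 42 in SOX17FNV and 37 and 34 in SOX2 (SE 0.188, limma adjusted p = 0.0613). This region was named after its values were seen. The single group-specific region was SOX17FNV-only, chr2:38760062-38760337, with pileups of 11 and 12.

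The retinoic acid receptor genes Rara and Rarg had the median differences nearest to 0, -0.00 and -0.03. With fold enrichment in place of pileup they were 0.07 and -0.10, and those of Esrra, Esrrb and Nr5a2 lay nearer to 0. RARA and RARG bind retinoic acid and, without it, hold corepressors on their targets. At Rara (chromosome 11, gene span 98927800 to 98974942), the region chr11:98937302-98938224 covers 2 of its 4 start sites. It had pileups of 60 and 43 in SOX17FNV and 61 and 43 in SOX2, and relative pileups of 1.81 ± 0.0187 in SOX17FNV and 1.64 ± 0.146 in SOX2 (SD, n = 2; log2 difference 0.14, SE 0.176, limma adjusted p = 0.804). It also lies in Gm46294, an overlapping gene. The 2 remaining start sites of Rara were covered by no region.

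The Rara window held 28 and 19 peaks in SOX17FNV and 23 and 22 in SOX2. Its 12 shared regions, of 35, were split 6 to 6 in the sign of their difference. The strongest lay in the neighbour Cdc6 at chr11:98907564-98908346, with pileups of 56 and 54 in SOX17FNV and 67 and 46 in SOX2 (log2 difference 0.14). The highest difference, 0.63, was also in Cdc6, at chr11:98921935-98922584, with 42 and 34 in SOX17FNV and 35 and 21 in SOX2 (SE 0.220, limma adjusted p = 0.137). The lowest was -0.18, in Top2a at chr11:99023405-99024568, with 51 and 39 in SOX17FNV and 67 and 47 in SOX2. At the gene's far end, chr11:98975125-98975590 had 31 and 22 in SOX17FNV and 29 and 28 in SOX2. At its near end, chr11:98928547-98928763 was called in SOX17FNV replicate 1 alone, with 30, and chr11:98926610-98926883 in SOX2 replicate 1 alone, with 31.

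Rara had 2 SOX17FNV-only regions, both upstream, at chr11:98900590-98901031 in Wipf2 with pileups of 19 and 15 and at chr11:98924662-98924997 with 34 and 22. Its 2 SOX2-only regions were upstream as well, at chr11:98892122-98892497 in Wipf2 with 18 and 17 and at chr11:98909667-98909968 in Cdc6 with 22 and 26. None of the 4 lay inside Rara.

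Rarg had the densest shared regions of the 7 genes. In its window (chromosome 15, gene span 102234938 to 102257522, minus strand), 15 of 27 regions were shared, 12.2 per 100 kb and at the percentile 97.5 of genes. Of the 15, Rarg was the nearest gene for 6. The window held 20 and 18 peaks in SOX17FNV and 22 and 19 in SOX2.

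Both start sites of Rarg were open in all 4 libraries. At the inner start, chr15:102246249-102247686, pileups were 60 and 51 in SOX17FNV and 76 and 54 in SOX2 (log2 difference -0.06, SE 0.172, limma adjusted p = 0.932). At the first start, chr15:102256679-102258566, they were 39 and 21 in SOX17FNV and 37 and 29 in SOX2 (log2 difference -0.04, SE 0.226, limma adjusted p = 0.966). The groups overlapped at both. The extremes, 0.44 and -0.33, were neighbours inside the gene. The first, at chr15:102239143-102239862, had 58 and 42 in SOX17FNV and 51 and 32 in SOX2. The other, at chr15:102240449-102241084, had 54 and 39 in SOX17FNV and 72 and 57 in SOX2, and neither passed the test (limma adjusted p = 0.254 and 0.411). At the far end, chr15:102235354-102236213 had 58 and 37 in SOX17FNV and 53 and 45 in SOX2. The SOX17FNV-only region, chr15:102217206-102217518 in Itgb7, had pileups of 18 and 17, and the SOX2-only region, chr15:102271040-102271845, 13.9 kb upstream, had 30 and 25.

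**Figure D4:**
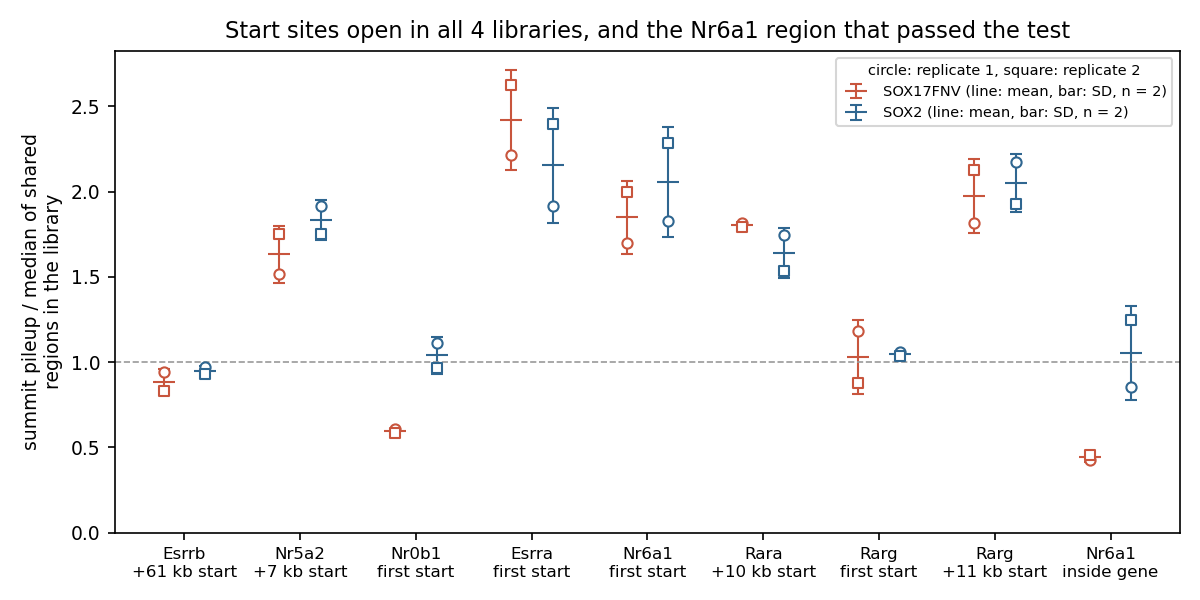
Relative summit pileup (y axis) of the 8 regions that covered start sites in all 4 libraries, and of the region inside Nr6a1 that passed the test, with SOX17FNV in red and SOX2 in blue. Circles are replicate 1, squares replicate 2, lines the mean and bars the SD (n = 2). The levels of SOX17FNV lie below those of SOX2 by more than the spread at Nr0b1, 0.595 against 1.04, and at the region inside Nr6a1, 0.441 against 1.05 (SOX17FNV against SOX2).

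Ordered by their level in SOX17FNV cells, the open start sites ran from Esrra at 2.42 through Rarg (inner) at 1.97, Nr6a1 at 1.85, Rara at 1.81, Nr5a2 at 1.63, Rarg (first) at 1.03 and Esrrb (inner) at 0.886 to Nr0b1 at 0.595. In SOX2 cells they ran from Esrra at 2.15 through Nr6a1 at 2.06, Rarg (inner) at 2.05, Nr5a2 at 1.83, Rara at 1.64, Rarg (first) at 1.05 and Nr0b1 at 1.04 to Esrrb (inner) at 0.950. In SOX17FNV cells, the libraries of neighbours in this order overlapped from Rarg (inner) to Rara and between Rarg (first) and Esrrb, and the other neighbours were apart. In SOX2 cells they overlapped from Esrra to Rarg (inner) and from Rarg (first) to Esrrb. Both orders are of relative pileup, and fold enrichment over local background gave other ones. At Nr0b1 the fold was 4.28 and 3.52 in SOX17FNV and 4.91 and 4.49 in SOX2. At Rara it was 3.46 and 3.32 in SOX17FNV and 2.97 and 2.49 in SOX2. In SOX2 cells it was 4.75 and 5.29 at Nr6a1, against 4.46 and 4.76 at Esrra. The group-specific regions were narrow, with a median width of 366 bp against 880 bp for the shared ones, and none of the 18 covered a start site. Their fold enrichments, as the authors' peak caller gave them, lay between 1.94 and 4.52.

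Other genes of the pathway were described from lists by their regions within 50 kb. The shares over all regions to read them against are 3.06% SOX17FNV-only and 4.09% SOX2-only, 0.893% higher and 1.23% lower by limma, and 7.46% higher and 6.07% lower at an unadjusted p below 0.05. The 42 other nuclear receptor genes held 789 regions, of which 31 (3.929%) were SOX17FNV-only and 25 (3.169%) SOX2-only, and of their 276 shared regions limma called 1 higher and 0 lower (32 and 11 at an unadjusted p below 0.05). Thrb, the thyroid hormone receptor beta gene, held 8 SOX17FNV-only regions, no SOX2-only region and the region called higher. Rarb, the remaining retinoic acid receptor gene, held 4 SOX17FNV-only and 1 SOX2-only regions, and Hnf4a, a receptor gene of liver and gut, 1 SOX17FNV-only and 2 SOX2-only. Thrb and Rarb both lie on chromosome 14, whose shared regions had a median log2 difference of 0.37, and its part in these counts was not tested.

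The 11 coregulator genes held 379 regions, 11 (2.902%) SOX17FNV-only and 26 (6.86%) SOX2-only, and of their 112 shared regions limma called 0 higher and 0 lower (2 and 1 at an unadjusted p below 0.05). The genes with most were Ncor1, which encodes a corepressor of unliganded receptors, with 3 SOX17FNV-only and 5 SOX2-only regions, and the coactivator gene Ncoa2 with 1 SOX17FNV-only and 6 SOX2-only. The 12 genes of retinoid metabolism held 141 regions, 4 (2.837%) SOX17FNV-only and 7 (4.965%) SOX2-only. Of their 52 shared regions limma called 0 higher and 1 lower (2 and 2 at an unadjusted p below 0.05). The 1 called lower was at Aldh1a2, which encodes an enzyme that makes retinoic acid. Crabp1, a gene of a retinoic acid binding protein, held 1 SOX17FNV-only and 3 SOX2-only regions. The retinol dehydrogenase gene Rdh10 held 3 SOX2-only regions, and Crabp2 held 1 SOX17FNV-only region. The 12 naive factor genes that are not nuclear receptors held 315 regions, 0 of them SOX17FNV-only and 16 (5.079%) SOX2-only, among them 3 at Nanog, 3 at Tfcp2l1 and 2 at Pou5f1. Limma called 0 of the 142 shared regions of that list higher and 0 lower (11 and 14 at an unadjusted p below 0.05).

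Genes whose peak counts over the 4 libraries were most like those of Esrrb were Tead1 with 43 and 25 peaks in SOX17FNV and 46 and 35 in SOX2, Fmnl2 and Nmnat2. The counts differed by sums of 5, 7 and 9 peaks over the 4 libraries. For Nr5a2 they were Zfp42, itself a gene of naive stem cells, with 26 and 18 in SOX17FNV and 30 and 25 in SOX2, Slc38a1 and Zfp407, with sums of 1, 2 and 2. Peak counts follow the length of each list and of each window, so this likeness is a description.

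Open regions went on past the 50 kb limit of the windows. At Esrra, the outermost shared region inside the limit, 47570 bp from the gene, had pileups of 51 and 27 in SOX17FNV and 48 and 37 in SOX2, and the first one outside it, at 52263 bp, had 60 and 49 in SOX17FNV and 66 and 58 in SOX2. At Nr0b1 the nearest region outside lay 159134 bp away.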

How the data were processed

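The libraries were ATAC-seq of 2TS22C cells, 2 per group, from 900000 cells each. The authors deposited 1 peak list per library. Bowtie2, SAMtools, MACS2 and mm10 are named per the submitters' processing notes; for their versions, filters and any transposase shift, nothing is stated in the sources used here. In the deposited lines stand a fold enrichment (a ratio to local background), the -log10 p-value and -log10 q-value, and the peak caller's score. The lowest deposited -log10 q in each list was 1.30.

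The pileup was solved from the deposited fold and -log10 p. A whole number matched the deposited -log10 p within 0.001 for 100% of summits. Without molecular identifiers, pileups are not independent molecules. Peaks overlapping by at least 1 bp were merged. Limma 3.58.1 in R 4.3.3 (lmFit, eBayes with trend) was fitted to log2 relative pileup of the 57783 regions called in all 4 libraries. It drew the variance of each region toward a trend over all of them, with 36.85 prior against 2 residual degrees of freedom. P-values were Benjamini-Hochberg adjusted over these, with a threshold of 0.05. A region that a library did not call, whatever its reason, was not tested, so the tested regions are not all members. The steps were tested on simulated data with known answers. The files had no unused per-sample columns.

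Gene spans came from RefSeq GRCm38.p6, and all 7 genes matched. The regions named were those specific to a group, those near gene ends and the strongest by relative pileup. Also named were those passing the test, or else those with the highest and lowest difference in each window. Members and lists were chosen with earlier results of these data known. Alternatives were a q minimum, lists of equal length, other windows, another overlap, other scalings, fold in place of pileup, no trend, a filter on low values, a replicate block and each library left out. One gene that the naming rule for the lists gives is not reported here.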

Additional observations from a re-analysis of the deposited data

How the results depend on the processing

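SOX17FNV-only and SOX2-only regions numbered 2 and 3 for peaks with a -log10 q of 5 or more, 2 and 1 for 10 or more, and 3 and 5 in gene spans alone, and shared regions 38, 14 and 40. SOX17FNV-only regions numbered 5 with lists of equal length and 4, with 48 shared, where a member was the nearest gene. Leaving out 1 library, which loosens the rule for its group, gave 10 to 29 SOX17FNV-only and 11 to 31 SOX2-only regions. The SOX17FNV-only minus SOX2-only count turned at Esrrb (main -2) to 1 at a -log10 q of 5 or more and to 3 without SOX17FNV replicate 2 (-7 to 3 over the libraries left out), and at Nr5a2 (main -2) to 1 with equal lists. At Nr6a1 (main 1) it turned to -2 and -1 with the q minimums and -2 without either SOX2 library (-2 to 4). The cause was not tested. By limma, the count of member regions lower in SOX17FNV, 1, was 0 with background scaling, which shifts all differences by 0.20 (log2), and 0 with a filter on low values, which leaves the region out, and it was 0 to 1 with a library left out. Over all regions, 516 higher and 710 lower became 0 and 0 with background scaling, 38 and 169 with fold, 114 and 285 without trend, 337 and 288 with the filter, and 274 higher when centred by chromosome. With a library left out they were 0 to 93 higher and 0 to 59 lower. A replicate block gave 1886 higher and 1788 lower, with 4 member regions higher and 4 lower, Nr0b1 among them (adjusted p = 0.0175). The labels do not say that a number marks a shared batch, and same-numbered deviations correlated at 0.233. With the shift of background scaling taken out, the median difference of the member regions, -0.06, kept its value within its error in 10 of 10 alternatives. In at least 1 of them, 8 of 23 named regions turned sign. Of the medians of single genes over these alternatives, 12 moved beyond their error and 57 did not. With fold in place of pileup the median of Esrrb turned to 0.04. With the shift left in, background scaling gave a median of 0.14 over the member regions and turned the sign of 7 of the 23. A library that missed a region gives no value there, and 2 libraries a group limit the precision.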
